A study of Mus musculus with 14 samples.

Results

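Promoters of protein-coding genes that carried H3K4me3 and H3K27ac but no H3K27me3 were described in mouse embryonic stem cells (mESC), in control and after knockdown (kd) of Smarcb1. A promoter was the window from 1 kb upstream to 1 kb downstream of the transcription start site (TSS) of a protein-coding gene on chromosomes 1 to 19 and X (GENCODE M21, GRCm38/mm10). Promoters were selected on the control calls of these 3 marks. One was taken when at least 1 bp of the window lay in an H3K4me3 island and in an H3K27ac island and no base lay in an H3K27me3 island. The rule picked 2932 of 21755 promoters (13.5%, 95% interval 13 to 13.9%). They made up 37.8% of the 7755 promoters with H3K4me3 and without H3K27me3 in control, while the remaining 4823 carried H3K4me3 alone. A further 4654 promoters had H3K4me3 together with H3K27me3 (bivalent), and 287 of these also had H3K27ac.

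The cells were of the 81K1 line, a single clone (K1) of OG2 mESC whose Rosa26 locus took up a cassette with an shRNA against Smarcb1 under a doxycycline dependent promoter. Control cells received no doxycycline, and Smarcb1 kd cells received 1 µg/ml doxycycline for 72 h. Both groups carry the cassette and differ in the drug as well as in the shRNA. Chromatin was immunoprecipitated (ChIP-seq) with antibodies against Smarca4, Ezh2, H3K4me3, H3K27ac and H3K27me3, with 1 library per antibody and condition. Smarca4 and H3K27me3 were processed by Active Motif and the other antibodies in the authors' laboratory, so differences between these antibodies and between the laboratories cannot be told apart. Without replicates no test between the conditions could be made, and all intervals below (95%, Wilson for shares and Newcombe for differences of shares) cover counting error only, as do the limits given for counts of 0 (3 counts of the total).

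H3K4me3 is deposited at the start of genes by COMPASS-type methyltransferases, and H3K27ac by the acetyltransferases p300 and CBP. Together they mark promoters in an active state. H3K27me3 is written by the PRC2 complex with its catalytic subunit Ezh2, and in mESC it often shares promoters of developmental genes with H3K4me3. H3K27ac and H3K27me3 occupy the same lysine residue and cannot sit on the same histone tail. Smarca4 is the ATPase of the BAF chromatin remodelling complex, of which Smarcb1 is a core subunit, and BAF is known to be found at active promoters and enhancers of mESC.

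The 10 lists held between 5364 and 78960 regions on these chromosomes. Sequencing depth is not part of the lists, so that a promoter without a call may have been missed at the depth reached. Across all protein-coding promoters, the share with H3K27ac was 16.1% in control and 31.2% after kd, that with H3K4me3 57% and 60.9%, and that with H3K27me3 35.2% and 29.4%. These differences concern whole lists and stand behind every value of these antibodies below. The level of Smarcb1 itself cannot be read from peak lists.

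For the stem cell label, 18 pluripotency genes were looked up, of which 10 were among the chosen promoters. These were Pou5f1 (Oct4), Sox2, Nanog, Sall4, Klf2, Klf5, Zfp42 (Rex1), Dppa4, Utf1 and Tdgf1. Of 15 genes of other lineages, among them Alb, Afp, Cd3e, Krt5 and Myod1, 0 were chosen, which allows a share of up to 20.0%. Of these 15, 6 were bivalent, 5 had H3K27me3 without H3K4me3 and 4 had neither mark. Being chosen rests on the control calls of the rule, so that these counts are no independent check of the label. Of the pluripotency genes that were not chosen, Lin28a and Tfcp2l1 had H3K4me3 alone, Klf4, Tbx3 and Prdm14 were bivalent, and Esrrb, Fgf4 and Dnmt3l had H3K27me3 without H3K4me3 in the window.

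To show what such promoters look like, the 200 bases upstream of the TSS are printed for 5 of them, 5′ to 3′ on the strand of the gene (GRCm38). Capitals mark exact matches, on either strand, to 9 short motifs that are described with the sequence results below. Pou5f1 had the strongest H3K27ac of the named genes, Sox2 is rich in CpG, Slc25a36 holds 3 different motifs within a short stretch, Mrps35 has a core ETS motif beside a GC box, and Zc3h11a had a Smarca4 peak after kd alone.
Pou5f1 (chr17:35505818-35506017, plus strand): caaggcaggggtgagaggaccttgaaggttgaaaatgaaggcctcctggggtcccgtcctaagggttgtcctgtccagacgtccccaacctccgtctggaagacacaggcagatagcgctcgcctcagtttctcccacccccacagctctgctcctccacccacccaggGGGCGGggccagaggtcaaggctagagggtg
Sox2 (chr3:34650205-34650404, plus strand): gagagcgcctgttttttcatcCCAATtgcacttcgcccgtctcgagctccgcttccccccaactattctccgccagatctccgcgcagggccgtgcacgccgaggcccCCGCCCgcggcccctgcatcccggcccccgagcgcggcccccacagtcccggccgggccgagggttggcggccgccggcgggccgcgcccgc
Slc25a36 (chr9:97111158-97111357, minus strand): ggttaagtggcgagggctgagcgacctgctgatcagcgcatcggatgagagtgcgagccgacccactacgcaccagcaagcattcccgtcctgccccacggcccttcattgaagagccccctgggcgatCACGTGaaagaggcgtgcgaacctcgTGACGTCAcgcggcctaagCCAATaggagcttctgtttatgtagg
Mrps35 (chr6:147042564-147042763, plus strand): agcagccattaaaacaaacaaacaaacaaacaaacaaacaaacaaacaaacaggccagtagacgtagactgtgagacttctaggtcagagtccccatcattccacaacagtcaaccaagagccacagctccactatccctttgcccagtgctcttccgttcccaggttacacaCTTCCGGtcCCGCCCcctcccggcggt
Zc3h11a (chr1:133661381-133661580, minus strand): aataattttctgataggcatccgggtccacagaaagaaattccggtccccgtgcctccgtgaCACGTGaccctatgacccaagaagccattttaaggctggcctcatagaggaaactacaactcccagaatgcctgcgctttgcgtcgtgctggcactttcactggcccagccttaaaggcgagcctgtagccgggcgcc
The GC box of Pou5f1 lies at -31 to -26 from the TSS. Its sequence holds 6 CpG over 200 bases, against 28 for Sox2 and 17 for Slc25a36. The E-box, the CRE and the CCAAT motif of Slc25a36 (a mitochondrial carrier) lie between -71 and -22. In Mrps35 (a protein of the mitochondrial ribosome) the ETS motif at -27 to -21 is followed by the GC box at -18 to -13.

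Almost all of these promoters held Smarca4. A Smarca4 peak overlapped 2789 of the 2932 in control (95.1%, 94.3 to 95.8%) and 2851 after kd (97.2%, 96.6 to 97.8%), against 63% and 64% of all protein-coding promoters. In control the share was 4.02 percentage points above that of promoters with H3K4me3 alone (2.88 to 5.12) and differed by -2.36 points from that of bivalent promoters (-3.30 to -1.49 for the difference). After kd the difference to H3K4me3 alone was 1.65 points (0.80 to 2.47), and the difference to bivalent promoters was -0.57 points, with an interval (-1.33 to 0.14) that included 0.

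**Figure D1:**
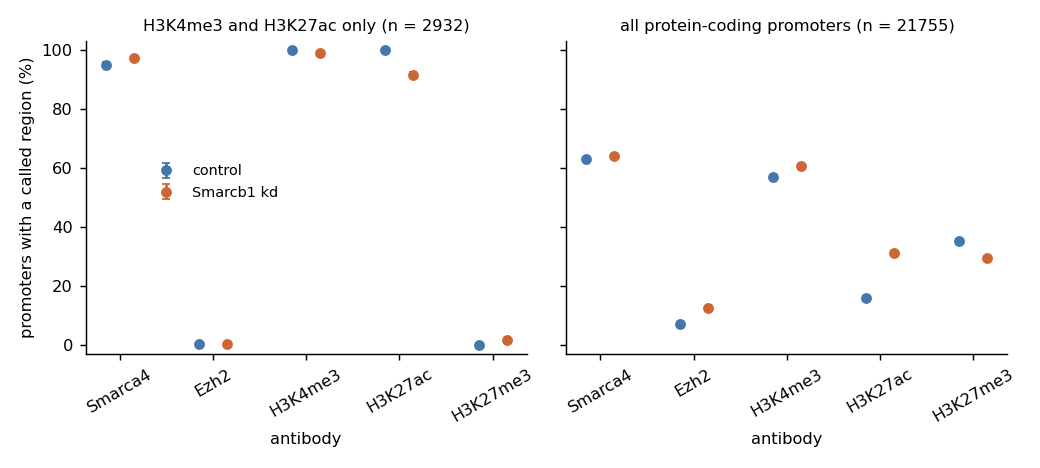
Share of promoters (y axis, %) with a called region of each antibody (x axis) in control (blue) and after Smarcb1 kd (orange), for the promoters with H3K4me3 and H3K27ac only (left) and for all protein-coding promoters (right). The 95% Wilson intervals are smaller than most points. On the left the control values of H3K4me3, H3K27ac and H3K27me3 are set by the choice of the promoters, while Smarca4 at 95.1% and 97.2% and Ezh2 at 0.273% and 0.512% are not.

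Promoters with Smarca4 after kd alone outnumbered those with Smarca4 in control alone. Of the chosen promoters, 2763 had a Smarca4 peak in both conditions and 55 had none. The peak was found in the control list alone at 26 (0.887%) and in the kd list alone at 88 (3.0%). Of all promoters, the corresponding shares were 2.72% and 3.72%. As a log2 ratio, kd-only over control-only, the chosen promoters stood at 1.76 (1.13 to 2.39), all promoters at 0.45 (0.30 to 0.61), promoters with H3K4me3 alone at 2.13 and bivalent promoters at 0.32 (-0.17 to 0.80). The excess of kd-only calls was therefore shared with H3K4me3 alone and was not particular to promoters with H3K27ac. The share of control-only calls lay below that of all promoters, and the share of kd-only calls lay slightly below it, with 143 chosen promoters that had no peak in control and could enter it.

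The promoters that differed between the lists were also poorer in CpG. The ratio of observed to expected CpG had a median of 0.82 over all chosen promoters, of 0.70 over those with Smarca4 after kd alone, of 0.45 over those with Smarca4 in control alone and of 0.27 over those with no Smarca4 peak. Of the 88 kd-only peaks 51 covered the TSS, and in 11 of 88 a control peak lay within 1 kb outside the window. Of the 26 control-only peaks 10 covered the TSS.

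By score, the highest control-only peak was that of Wipi2, a factor of autophagosome formation, with a score of 196. It reached the window from +974 and covered 27 bp of it, while the nearest kd peak began 1237 bp from the TSS. Zfp989 (157), Mbip (136), Fuz (134) and Apex2 (127) followed, and for Mbip the nearest kd peak was 44031 bp away. Of the kd-only peaks, Trim13, a ubiquitin ligase, had the highest score with 488 and Naa20, the catalytic subunit of an N-terminal acetyltransferase, the second with 370. Both of these peaks reached only the far end of the window (from +935 and +963), and control peaks stood just outside it, 1029 and 1030 bp from the start sites. Weaker kd peaks lay further inside both windows, and kd peaks covered 746 bp of the window of Trim13 and 263 bp of that of Naa20 in all. The third was a peak with a score of 357 shared by Zc3h11a, Zbed6 and Gm38394, which lie together on chromosome 1. It covered all their start sites, and the nearest control peak lay 2185 bp from the TSS of Zc3h11a. H3K27ac at the same place went from a p-value of 8.45e-53 in control to 2.85e-157 after kd.

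Smarca4 peaks at these promoters scored higher after kd. The MACS2 score of the highest Smarca4 peak in the window had a median of 181 in control (quartiles 111 and 283) and 230 after kd (144 and 346), whereas over all promoters with a peak the median was 164 in both lists. The width of this peak had a median of 925 bp in control and 1000 bp after kd, against 870 and 817 bp over all promoters. MACS2 scores depend on depth and are not scaled between libraries, so the change of a promoter can be read only relative to other promoters of the same lists.

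On this relative scale the chosen promoters stood higher after kd. The log2 ratio of the kd score to the control score had a median of 0.33 (quartiles -0.15 and 0.82), against 0.19 at promoters with H3K4me3 alone, -0.24 at bivalent promoters and 0.03 over all promoters. At 502 chosen promoters (18.2%) the kd score was at least double the control score, and at 112 (4.05%) it was at most 50% of its control value. With H3K4me3 alone these shares were nearby, at 15.1% and 6.37%. They were 5.47% and 16.6% at bivalent promoters and 11.7% and 11.3% over all promoters. The rank of the peak within its own list was higher after kd at 63.3% of the 2763 promoters (61.5 to 65.1%). This was 7.97 points more than with H3K4me3 alone (5.63 to 10.3) and 30.5 points more than at bivalent promoters (28.2 to 32.7), where the rank was higher at 32.8%. The share exceeded that of all promoters on each of the 20 chromosomes and ranged from 54.5% to 70.5%.

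**Figure D2:**
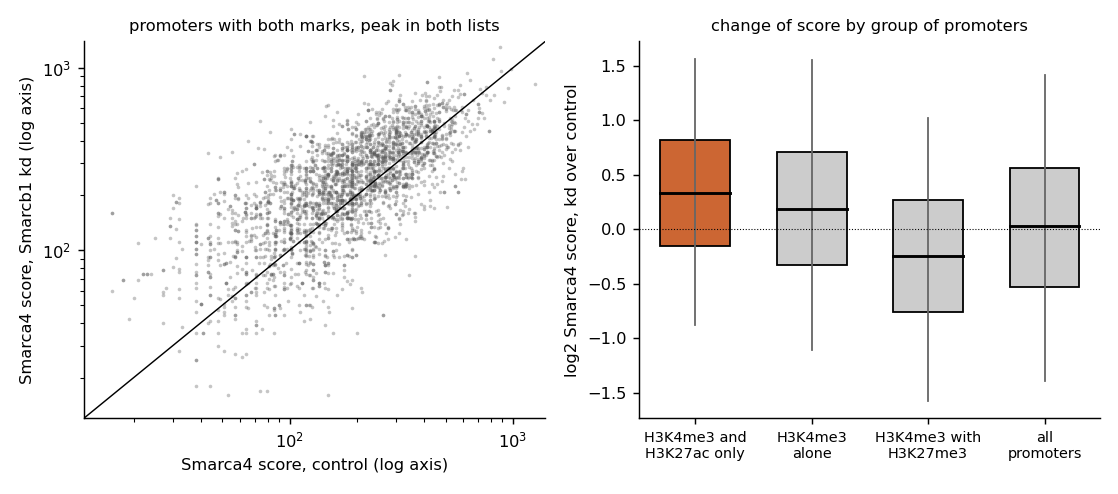
Left, MACS2 score of the highest Smarca4 peak in the window in control (x axis, log) and after Smarcb1 kd (y axis, log) for the 2763 promoters with H3K4me3 and H3K27ac only and a peak in both lists (1 point each; line, equal scores). Right, log2 ratio of the kd to the control score by group of promoters (line in the box, median; box, quartiles; whiskers, 5th and 95th percentile), with medians of 0.33, 0.19, -0.24 and 0.03 from left to right.

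The difference was located at the start site. In control, a Smarca4 peak covered the TSS of 69.6% of the chosen promoters and after kd of 79.9%, a difference of 10.4 points (8.74 to 12). The coverage was highest 250 bp downstream, with 80.1% and 86.7%, and at 250 bp upstream it was 50.6% and 58.6%. Further into the gene the order turned, with 36.0% and 34.8% at 1 kb and 16.6% and 12.6% 1750 bp downstream, a difference of -4.06 points (-5.30 to -2.81). The downstream difference was general, with 9.31% and 6.63% at this position with H3K4me3 alone and 10.7% and 7.67% over all promoters. Promoters with H3K4me3 alone had a similar difference at the TSS (63.1% and 72.4%). Bivalent promoters did not (71.7% and 70.6%), and their coverage at 1 kb downstream was 48.3% and 38.6%. Smarca4 between 1 and 10 kb from the TSS on either side was found at 73.2% of the chosen promoters in control and 73.4% after kd, against 57.3% and 57.1% with H3K4me3 alone.

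**Figure D3:**
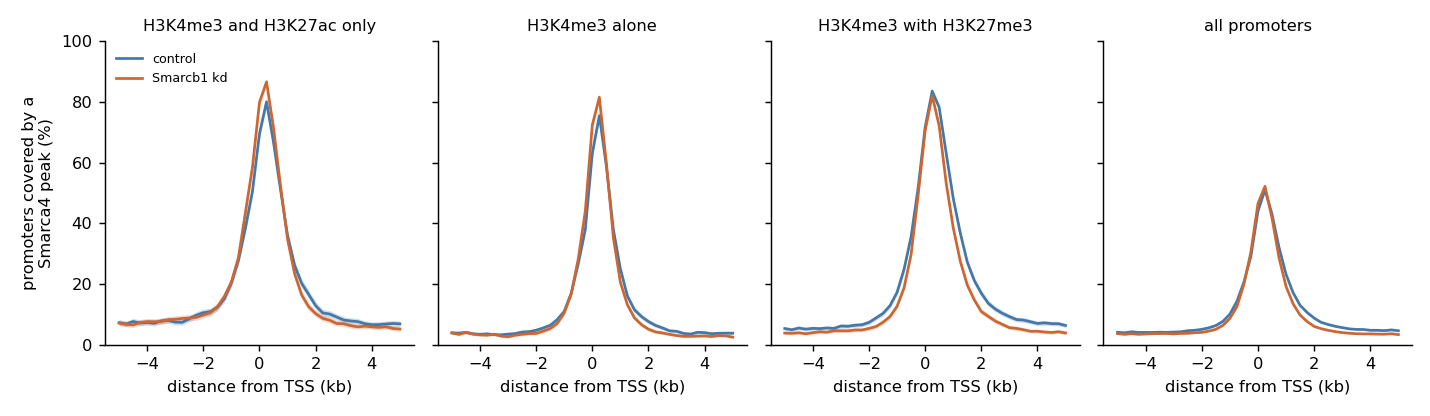
Share of promoters whose position at a given distance from the TSS (x axis, kb, negative upstream) lay in a Smarca4 peak (y axis, %), in control (blue) and after Smarcb1 kd (orange), shaded with 95% Wilson intervals, in steps of 250 bp. At promoters with H3K4me3 and H3K27ac only the kd line lies above the control line at the TSS (79.9% against 69.6%) and below it at 1750 bp (12.6% against 16.6%), while at bivalent promoters it lies below the control line on the downstream side.

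Among the single promoters, the highest Smarca4 scores in control belonged to Sntb2, a syntrophin (1259 in control and 814 after kd), Pou5f1, the Oct4 gene (983 in both), Agpat5 (955 and 776), Ing2, a reader of H3K4me3 (913 and 648), and Slc25a36 (889 and 965). Of these 5 only Slc25a36 had a higher score after kd. Sntb2, Agpat5 and Ing2 lie on chromosome 8. Its chosen promoters with a peak in both lists had a median control score of 259, the highest of all chromosomes, and its promoters as a whole 235.5. The highest score after kd was that of Rest, the repressor of neuronal genes, with 880 in control and 1298 after kd (named after its values were seen).

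Ezh2 was nearly absent in both conditions. A peak was called at 8 chosen promoters in control (0.273%, 0.138 to 0.538%) and at 15 after kd (0.512%, 0.310 to 0.842%), against 7.19% and 12.7% of all promoters. Of these, 7 were found in control alone and 14 after kd alone, where the shares of all promoters were 0.285% and 5.83%, and only 1 promoter had the peak in both lists. Bivalent promoters, by contrast, had Ezh2 at 29.2% in control and 50.8% after kd. The difference to promoters with H3K4me3 alone was not detectable, with 0.09 points in control (-0.13 to 0.37) and -0.05 points after kd (-0.37 to 0.33).

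The few Ezh2 peaks were weak. Their score had a median of 54 in control and 44 after kd, while that of all promoters with a peak was 102 and 175. In control the highest belonged to Abi1 (110), an actin regulator, Memo1 (67) and the kinase gene Dyrk1a (64), and after kd to Epcam (193), an epithelial adhesion molecule, Mb21d2 (114) and Tcf7l2 (95), a factor of Wnt signalling. All 6 had Smarca4 in both conditions. Mb21d2 was the sole one of them with H3K27me3 after kd. The control peaks had a median of 56.2% repeat-masked bases, against 5.94% over all promoters with an Ezh2 peak in control. After kd the median at the chosen promoters was 4.06%. The control peak of Abi1 was 78.8% repeat-masked, that of Memo1 33.6% and that of Dyrk1a 19.7%. The part of repeats in these calls was not tested.

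The marks that defined the promoters were mostly kept after kd, and these counts describe the choice rather than test it, since a promoter chosen for a call in control can only keep or lose it. H3K4me3 was called again at 2900 promoters (98.9%) and not at 32 (1.09%). Of all 12409 promoters with H3K4me3 in control, 171 had it in control alone. Over all promoters, with or without a control call, 0.786% had it in control alone and 4.62% after kd alone. H3K27ac was called again at 2687 (91.6%) and not at 245 (8.36%). Of all 3500 promoters with H3K27ac in control, most of them the chosen ones, 402 had it in control alone. Over all promoters, with or without a control call, 1.85% had it in control alone and 16.9% after kd alone. H3K27me3 appeared at 48 (1.64%), where 2.41% of all promoters had it after kd alone and 8.21% in control alone. The full state with H3K4me3 and H3K27ac and without H3K27me3 was found again at 2635 (89.9%, 88.7 to 90.9%). Another 220 (7.50%) kept H3K4me3 alone, 38 had all 3 marks, 7 had H3K4me3 with H3K27me3, 14 had H3K27ac alone, 3 had H3K27me3 alone and 15 had none. In the same lists, 49.9% of the promoters with H3K4me3 alone had an H3K27ac island after kd.

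The H3K27ac islands that were not found again had been weak in control, with a median -log10 p of 8.32 against 12.2 over all chosen promoters. The 5 with the lowest control p-value were Cobl, an actin nucleator (1.98e-84), Lpar6, a lysophosphatidic acid receptor (2.38e-52), Gm16503, Gm31371 and Slco4c1, an organic anion transporter. Of these, Cobl, Gm31371 and Slco4c1 had H3K27me3 after kd, and Cobl then had an Ezh2 peak with a score of 24. Where an island was called in both lists, its p-value was lower after kd in relation to its list at 80.4% of the chosen promoters. These make up 2687 of the 3098 promoters with H3K27ac in both lists, so that all promoters are no separate comparison, and at bivalent promoters the share was 88.6% (209 of 236). The kd list was longer (50700 islands against 38737), which by itself shifts ranks within a list. This share was not computed with lists of equal length. The median -log10 p was 12.2 in control over all 2932 chosen promoters and 25.6 after kd over the 2687 that still had an island.

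H3K4me3 islands were narrower after kd, with a median of 4800 bp in control and 4200 bp after kd. The island was narrower at 63.6% of the chosen promoters and wider at 30.1%, while 60.8% of all promoters with the mark in both lists had a narrower one. Its rank within its list was higher after kd at 28.9%, against 59.2% with H3K4me3 alone, 84.4% at bivalent promoters and 61.4% over all promoters. Islands with a p-value of 0 share 1 rank, at percentile 96.1 in control and 93.0 after kd. The part of this tie in the ranks was not tested. At 2 kb downstream of the TSS the share covered by H3K4me3 was 74.6% in control and 64.3% after kd. It was also lower after kd with H3K4me3 alone (42.5% and 33.4%) and over all promoters (26.5% and 23.0%). By control p-value, the first promoters without H3K4me3 after kd were Ppm1a, a protein phosphatase, Atg4b, an autophagy protease, Ube2l3, a ubiquitin conjugating enzyme, Zfp980 and Gm16503. All 32 had a CpG ratio below 0.6, with a median of 0.26.

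At the 48 promoters with H3K27me3 after kd, the islands mostly reached in from the side. They covered the TSS at 10 of them, overlapped the window by less than 200 bp at 11 and by a median of 589 bp, and at 19 a control island stood within 1 kb outside the window. The lowest p-values belonged to Hist1h1e, a linker histone gene (1.4e-98), Mib1, an E3 ligase of Notch signalling (6.2e-88), Tead1, a transcription factor of the Hippo pathway (3.24e-73), Mb21d2 (2.59e-70) and Chn1, a Rac GTPase-activating protein (3.54e-68). The island of Hist1h1e ended 43 bp upstream of the TSS, and the control island stood 1443 bp from it. For the other 4 the control island lay between 1148 and 2473 bp from the TSS. All 5 kept H3K4me3 and H3K27ac, and of their Smarca4 scores those of Hist1h1e (102 to 181) and Chn1 (80 to 193) were higher after kd.

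Outside the window H3K27me3 was less common after kd. An island within 5 kb of the TSS was found at 388 chosen promoters in control (13.2%) and at 226 after kd (7.71%). It was one-sided, with 10.4% of the promoters covered at 5 kb upstream in control and 1.36% at 5 kb downstream. After kd the values were 5.42% and 0.819%. The lower share after kd was not particular to the chosen promoters, since at 5 kb upstream it was 23.4% and 18.1% over all promoters, and islands within 5 kb were found at 18.7% and 13.6% of promoters with H3K4me3 alone.

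Some members stood close to the limits of the rule. The smallest overlaps inside it were 15 bp of H3K4me3 at Nup160 and 3 bp of H3K27ac at Olfr1184, and the highest p-value of an H3K27ac island inside it was 9.89e-06 at Dcp2. Rbbp7 was inside with an H3K27me3 island 2 bp beyond its window. Just outside the rule were Fancm, with H3K4me3 and an H3K27ac island 3 bp beyond the window, and Srek1, where 8 bp of H3K27me3 lay in the window. In all, 21 members had less than 200 bp of H3K27ac, 5 less than 200 bp of H3K4me3 and 117 an H3K27me3 island within 1 kb of the window. At 152 members (5.18%) the best H3K27ac island was at least 50% repeat-masked. Windows also overlapped: 805 members shared bases with another member, and joined windows came to 2518.

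The promoters also differed among themselves by the strength of the marks. Ordered by the control p-value of H3K27ac in 4 groups of 733, the group with the weakest islands had Smarca4 at 96.2% in control and 98.1% after kd, and that with the strongest at 94.3% and 96.3%. The median Smarca4 score, however, was 171 and 209 in the weakest and 209 and 288 in the strongest group. By the width of the H3K4me3 island in control, the narrowest group (800 to 3400 bp) had scores of 140.5 and 167 and kept H3K27ac at 83.9%, and the widest (7000 to 57400 bp) had 228 and 313 and kept it at 96.6%. In the order of H3K4me3 width, Smarca4 was found in control at 92.0% of the narrowest group (89.8 to 93.7%), 94.5% and 98.0% of the next groups and 96.0% of the widest (94.4 to 97.2%). The median score was higher under strong H3K27ac and broad H3K4me3 in both conditions.

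By gene group, promoters of genes that every dividing cell uses were chosen more often than promoters in general, and many others of them had H3K4me3 alone. Of 83 promoters of cytosolic ribosomal proteins 52 were chosen (62.7%, 51.9 to 72.3%), where 13.5% of all promoters were. Another 22 of the 83 had H3K4me3 alone. Among all promoters with H3K4me3 and without H3K27me3, 37.8% were chosen. Their median Smarca4 score was 132 in control and 215 after kd, and the score was higher after kd at 44 of the 51 with a peak in both lists. Rpl23 (290 and 371) and Rps10 (271 and 375) had the highest control scores. Only Rpl10 lacked Smarca4, and it did so in both lists. Rpl15 was without H3K27ac after kd and Rpl26 had H3K27me3 after kd. Ribosomal proteins, splicing factors and the other lists named here were chosen with earlier results of these data known, so their counts are descriptions.

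The machinery of gene expression followed. Chosen were 25 of 54 translation initiation factors (scores higher after kd at 20 of 25), 19 of 48 splicing factors (14 of 18) and 18 of 52 subunits of RNA polymerase II and general factors (13 of 16). In the same order, 19, 22 and 25 promoters of these lists had H3K4me3 alone. The highest control scores were those of Eif4h (616 and 557) and Eif4ebp2 (524 and 315) among initiation factors and their regulators, Srsf2 (360 and 304) and Snrpb (307 and 585) among splicing factors, and Gtf2i (297 and 383) and Polr2m (249 and 435) in the third list. In each list the score was higher after kd at more promoters than it was lower, as it was at 67.9% of all chosen promoters with a peak in both lists.

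Of cyclins, cyclin-dependent kinases, Mcm and Cenp genes 28 of 77 were chosen, with a median score of 118 in control and 203 after kd. Cdk17 had 826 and 715 and Cenpv 410 and 422. Of mitochondrial ribosomal proteins 24 of 78 were chosen, with Mrpl48 (786 and 452) and Mrps35 (311 and 249) at the top, and of the respiratory chain 22 of 85, with Uqcrh (446 and 279) and Cox5a (376 and 449). Of the proteasome 16 of 49 were chosen, with Psme4 (400 and 332) and Psmd7 (394 and 294). Most of the other promoters of these 4 lists had H3K4me3 alone, for example 45 of 78 for mitochondrial ribosomal proteins and 49 of 85 for the respiratory chain.

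**Figure D4:**
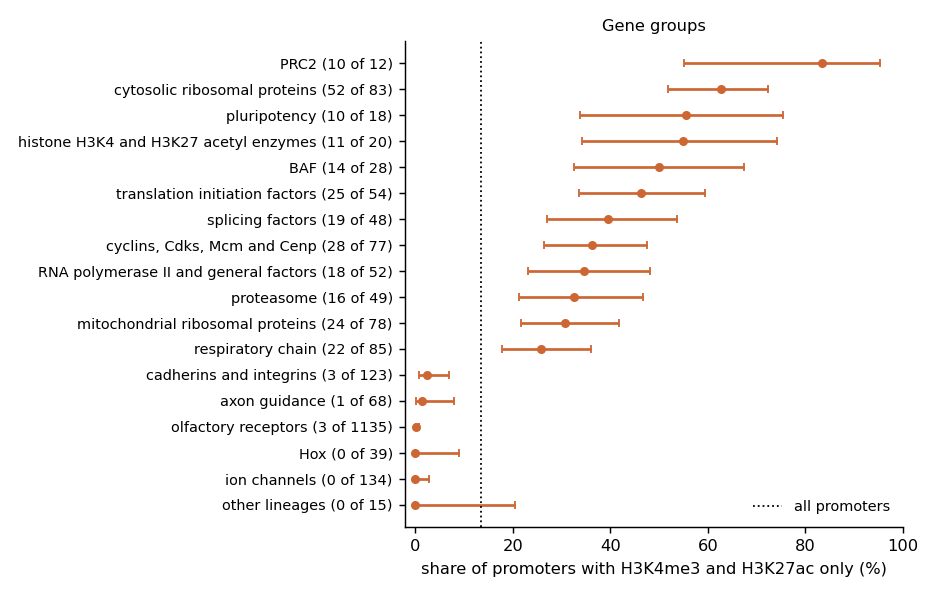
Share of the promoters of each gene list (y axis, chosen of all in the list) that had H3K4me3 and H3K27ac only in control (x axis, %), with 95% Wilson intervals. The dotted line marks the 13.5% of all protein-coding promoters. PRC2 (10 of 12) and cytosolic ribosomal proteins (52 of 83) have the highest shares, and lists of developmental and neuronal genes lie below the line. Many promoters of those lower lists carried H3K27me3 in control, which the rule leaves out.

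Genes of development and of differentiated cells were rare. Of 39 Hox genes 0 were chosen, which allows up to 7.69%, and of 134 ion channel genes 0, which allows up to 2.24%. The rule leaves out promoters with H3K27me3 in control. Of the Hox promoters 13 were bivalent and 26 had H3K27me3 without H3K4me3, so that their count of 0 was set by the rule. Of the ion channel promoters 67 were bivalent and 34 had H3K27me3 without H3K4me3. Of 123 cadherins and integrins 3 were chosen. The integrin genes Itgb1 (282 in control and 831 after kd) and Itgav (415 and 340) were 2 of them, and the window of Itgav had an H3K27me3 island after kd. Of 68 axon guidance genes only Sema4b was chosen (370 and 510). Of 1135 olfactory receptor genes 3 were, and Olfr641 was the single one with a Smarca4 peak (141 and 182). Its control peak was 94.0% repeat-masked and covered only 135 bp at the upstream end of the window.

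The stem cell factors had high Smarca4 scores, with a median of 312.5 in control and 436 after kd. By plain difference, the score differed most at Sox2 (314 in control and 707 after kd) and Sall4 (311 and 679), both transcription factors of the pluripotency network, and at Tdgf1, a Nodal co-receptor (124 and 400). As a ratio of kd to control, the score differed most at Tdgf1. It was also higher after kd at Klf2 (380 and 472), Zfp42 (127 and 230), Nanog (144 and 204) and Dppa4 (57 and 130). Pou5f1 had the same score in both lists, and Klf5 (758 and 707) and Utf1 (480 and 345) had lower ones. A higher score after kd at 7 of these 10 was near the 67.9% of all chosen promoters with a peak in both lists. All 10 kept Smarca4, H3K4me3 and H3K27ac, and Sall4 had an H3K27me3 island in its window after kd.

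Genes of the BAF complex were chosen at 14 of 28, with a median Smarca4 score of 231 in control and 423.5 after kd. The DNA-binding subunits of canonical BAF, Arid1a (243 and 571) and Arid1b (219 and 515), had scores more than 200 higher after kd, as had Bcl7b (148 and 408), Phf10 of PBAF (410 and 667), Bicral (344 and 571) and Ss18 (400 and 616). Arid2 (410 and 557), Smarce1 (308 and 426), Pbrm1 (27 and 78) and Bcl7a (389 and 421) were also higher. The promoter of Smarca4 itself had 116 and 140. The promoter of Smarcb1, the gene targeted by the shRNA, had 130 and 106, and Bicra (199 and 116) and Dpf2 (118 and 78) were lower too. In all, 11 of the 14 were higher after kd and 3 lower, where 67.9% of all chosen promoters with a peak in both lists were higher. The shRNA acts on the mRNA, so that the promoter of Smarcb1 is no check of the knockdown.

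PRC2 genes were chosen at 10 of 12, although PRC2 itself is the writer of the mark these promoters lack. The catalytic subunits were Ezh2 (333 and 342) and Ezh1 (124 and 272), and the core subunits Suz12 (301 and 332), Eed (242 and 271), Rbbp4 (329 and 188) and Rbbp7 (219 and 383). Of the accessory subunits, Mtf2 (221 and 448), Epop (459 and 628) and Jarid2 (360 and 433) had higher scores after kd, and Aebp2 (672 and 464) a lower one together with an H3K27me3 island in the window. In all, 8 of the 10 scores were higher after kd and 2 lower, where 67.9% of all chosen promoters with a peak in both lists were higher. The gene Phf1 had H3K4me3 alone and Phf19 was bivalent. Of 20 genes for enzymes and cofactors acting on H3K4 methylation and H3K27 acetylation 11 were chosen, among them Ep300 (455 and 390), which encodes p300, and Kmt2c (446 and 475). All chosen promoters of the BAF, PRC2 and enzyme lists kept Smarca4, H3K4me3 and H3K27ac after kd.

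The sequence around the TSS was read from GRCm38, from 250 bp upstream to 50 bp downstream. GC content had a median of 60.3% at the chosen promoters and of 55.0% at all promoters, and the ratio of observed to expected CpG had a median of 0.82 against 0.53 (0.77 with H3K4me3 alone and 0.72 at bivalent promoters). The ratio reached 0.6 at 80.3% of the chosen promoters and at 44.7% of all. A divergent neighbour, a protein-coding gene starting within 1 kb in the opposite direction, was found at 13.7% (12.5 to 15%), against 6.84% of all promoters, 15.9% with H3K4me3 alone and 4.94% of bivalent promoters.

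Exact matches to 9 motifs were counted on both strands. The GC box bound by SP and KLF factors (GGGCGG) was found at 63.3% of the chosen promoters and 43.4% of all, and the CCAAT box bound by NF-Y (CCAAT) at 40.9% and 38.9%. The ETS core (CCGGAAG) occurred at 22.4%, against 10.9% of all promoters and 6.90% of bivalent ones, and it was as frequent with H3K4me3 alone (23.6%). For the E-box (CACGTG) the shares were 12.1% and 7.81%, for the YY1 core (ATGGCGG) 11.6% and 4.82%, and for the NRF1 core (GCATGCG) 8.29% and 4.34%. The CRE core of CREB and ATF factors (TGACGTC) was found at 6.82% and 4.04%, and the BANP core (CTCGCGA) at 5.63% and 2.61%. The letters of the TATA box (TATAAA) were found at 7.13% against 12.7%. A CCAAT box on the reverse strand can overlap a GC box. None of the 9 motifs was present in 294 chosen promoters (10.0%), against 22.3% of all.

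**Figure D5:**
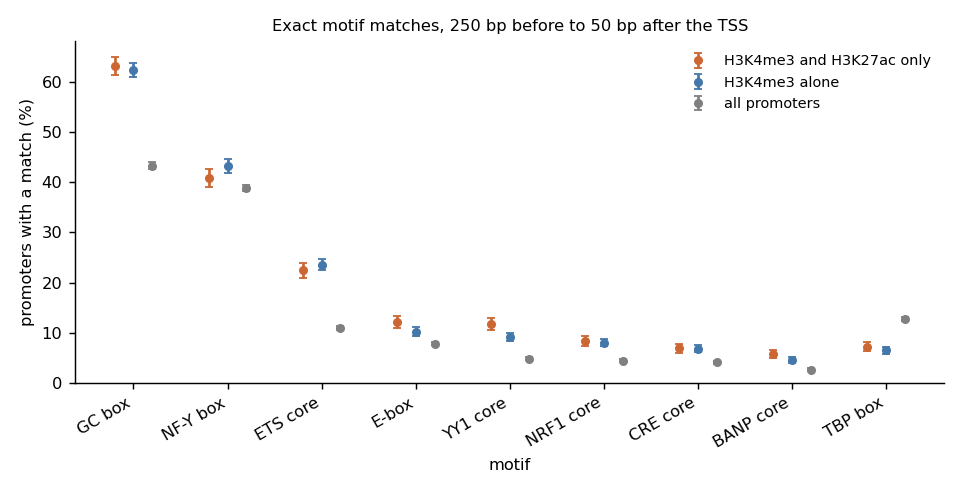
Share of promoters (y axis, %) with at least 1 exact match, on either strand, to each of 9 motifs (x axis), for promoters with H3K4me3 and H3K27ac only (orange), with H3K4me3 alone (blue) and all protein-coding promoters (grey), with 95% Wilson intervals. Orange and blue lie close together for most motifs and above grey for all but the TBP box, with 22.4%, 23.6% and 10.9% for the ETS core.

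Against promoters with H3K4me3 alone the sequence differed little. The YY1 core was found at 11.6% (10.5 to 12.8%) against 9.08% (8.30 to 9.93%), and the E-box at 12.1% (11 to 13.3%) against 10.1% (9.32 to 11%). The position of the ETS core was the same as elsewhere, with 65.4% of the 578 upstream matches within 100 bp of the TSS against 66.3% over all promoters.

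Within the chosen promoters, those with a GC box had Smarca4 at 97.3% in control and 98.7% after kd with median scores of 199 and 250, and those without it at 91.4% and 94.7% with 148 and 204. With the ETS core the median scores were 153 and 190, and without it 190 and 247. With the E-box a Smarca4 peak was found at 96.1% in control and at all 355 promoters after kd, and without it at 95% and 96.9%. These groups also differed in CpG, with a median ratio of 0.86 with and 0.73 without a GC box, and its part in the scores was not tested.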

How the data were processed

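ChIP-seq was made of 81K1 mESC with 5 antibodies in control and after Smarcb1 kd, 1 library each, beside 4 inputs, not analysed here. By the methods, the authors trimmed and aligned the reads (mm10) and filtered them with SAMtools 1.9 for unique alignment (the submitters' processing notes also name Trim Galore and Bowtie2). The methods name input as background of the calls, whereas labels name IgG, so which was used is not certain here. The deposited Smarca4 and Ezh2 lists carry the authors' MACS2 score, and the deposited lists of histone marks carry the authors' p-values from SICER, by which these lists had been filtered. Neither is scaled between libraries. The sample labels give 1 sequencing facility throughout, whereas the laboratories stated here are those of the methods. Read counts were not used, and labels give a nominal depth only.

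Promoters were taken from GENCODE M21, 1 TSS per gene, on 20 chromosomes of GRCm38, whereas the paper names a later release. A call needed an overlap of 1 bp. Where several regions lay in a window, the one with the highest score or the lowest p-value gave the value. Shares have 95% Wilson intervals, differences Newcombe intervals, and the floor of a count of 0 is 3 counts. Islands with a p-value of 0 were set to a -log10 p of 320. Promoters of 1 library are not replicates, so no p-value was computed. The promoters, gene lists and comparisons were chosen with earlier results of these data known. Named genes are the 5 members with the highest control Smarca4 score, the 5 control-only and 5 kd-only with the highest score, the 5 with the lowest p-value for each mark that appeared or was not found again and the 3 with the highest Ezh2 score in each list. Also named are every gene of the pluripotency and PRC2 lists, the chosen genes of the BAF list, the top 2 members by control score of the other lists and the members at the limits. Others are named as chosen after their values were seen. Simulated lists with known overlaps served to test the overlap step. Python 3.11.15, pandas 2.3.3, NumPy 2.4.6, SciPy 1.17.1, pysam 0.24.0 and matplotlib 3.10.9 were used. The authors' differential calls were not used.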

Additional observations from a re-analysis of the deposited data

How the results depend on the processing

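Of 107 values under alternative settings, 87 stayed within the interval of the reported value (for the number of promoters, within 1.5 times of it) and 20 moved further. No log2 ratio and no difference at a position changed its sign. Shares were each followed singly, without regard to their order between the conditions. A stricter threshold (MACS2 score from 50 upwards, -log10 p from 10 upwards for H3K27ac islands and from 20 upwards for H3K4me3 and H3K27me3) left 1727 promoters, with Smarca4 at 91.0% in control and 95% after kd, Ezh2 at 0.116% and 0% (up to 0.174% by 3 counts), H3K27ac at 87.5% and H3K27me3 at 0.637% after kd, and a Smarca4 difference at the TSS of 12.2 points. There the Ezh2 share was higher in control, whereas in the main setting it was higher after kd (0.273% in control and 0.512% after kd). With windows of 500 bp on either side, Smarca4 in control was 94.1%, Ezh2 in control 0.104%, H3K27ac after kd 90.5% and H3K27me3 after kd 1.04%. Lists shortened to equal length gave Smarca4 in control at 94.3%, H3K27ac after kd at 86.2% and a higher Smarca4 rank after kd at 66.2%. With H3K27ac islands under 50% repeat-masked, Smarca4 in control was 95.9% and H3K27ac after kd 89.8%. Counting every transcript start gave 7832 start sites and a Smarca4 difference at the TSS of 8.53 points. Without the chromosome 4 zinc finger cluster H3K4me3 after kd was 99.3%. The causes were not tested. For Smarca4 the log2 ratio, kd-only over control-only, ranged from 1.56 to 2.26. The values at the TSS and at 1750 bp, the ranks and the setting without the cluster were added after seeing the data.

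No paired analysis was possible because there was 1 library per antibody and condition, and for the same reason no library was left out. Depth is unknown, and its part in calls present in 1 list alone was not tested.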

Other observations

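A cluster of KRAB zinc finger genes on chromosome 4 (chr4:145510759-147809788, Zfp990 to Zfp984, GRCm38) stood apart from the other chosen promoters, and was singled out after its values were seen. Of its 21 promoters 17 carried H3K4me3 and H3K27ac only in control. H3K4me3 was not called after kd at 11 of these 17, out of 32 such promoters in all, and H3K27ac was not called after kd at 9, out of 245. Their H3K4me3 islands in control were broad, with a median of 17600 bp (3600 to 57400 bp) against 4800 bp at the other chosen promoters. Gm16503 and Zfp985 lay in 1 island of 57400 bp that was not called after kd. The island of Gm13212 was 24600 bp wide in control and 2800 bp after kd, and that of Zfp984 17600 and 14600 bp.

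Smarca4 calls in the cluster were irregular, with 3 promoters called in control only, 4 called after kd only and 7 without a call. Zfp989 had Smarca4 in control alone (score 157) and Rex2 after kd alone (73), although their sequences are nearly copies of each other. The 200 bases upstream of both are given to show this, 5′ to 3′ on the strand of the gene, with motif matches in capitals (a CCAAT box on the reverse strand that overlaps a GC box, and a YY1 core on the reverse strand).
Zfp989 (chr4:146971776-146971975, plus strand): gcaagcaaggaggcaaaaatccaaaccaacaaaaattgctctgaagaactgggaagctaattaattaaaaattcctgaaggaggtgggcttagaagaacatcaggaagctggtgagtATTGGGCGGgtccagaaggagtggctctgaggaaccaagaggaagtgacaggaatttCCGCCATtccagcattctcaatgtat
Rex2 (chr4:147021650-147021849, plus strand): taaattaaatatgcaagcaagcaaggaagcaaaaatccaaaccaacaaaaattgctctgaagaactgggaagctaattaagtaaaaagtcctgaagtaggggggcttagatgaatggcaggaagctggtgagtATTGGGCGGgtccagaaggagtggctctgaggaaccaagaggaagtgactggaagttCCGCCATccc
Shifted by 16 bp, 172 of 184 aligned bases were identical (93.5%). The authors kept uniquely mapped reads, which near-identical copies hold in smaller number, and the part of this in the calls was not tested. Over the whole genome, genes with a zinc finger (Zfp) symbol made up 3.72% of the chosen promoters and 1.92% of all, 8 of the 55 chosen promoters without Smarca4 in either list and 10 of the 32 without H3K4me3 after kd.

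The largest differences of the Smarca4 score at single promoters were also picked after the values were seen, among promoters with a control score of at least 100 or a kd score of at least 400. Higher after kd were Fmc1 (74 and 515), Ubb, a polyubiquitin gene (82 and 448), Pcbp2 (102 and 461), Poli (148 and 628) and Rprd2 (146 and 616). Lower after kd were 5430403G16Rik (148 and 16), Commd1 (261 and 44, a peak shared with Gm28048), Apela, which encodes a peptide hormone of early embryos (200 and 35), and Lyrm2 (344 and 73).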
